A study of Mus musculus with 6 samples.

Results

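The clock output and Bhlhe repressor genes are Dbp, Tef, Hlf, Nfil3, Bhlhe40, Bhlhe41 and Ciart. They were chosen by name, and every probe whose RefSeq transcript accession belongs to 1 of these 7 genes was taken, which gave 9 of the 55681 probes on the array. Dbp and Bhlhe41 have 2 probes each (for Dbp, A_55_P2032079 is probe 1 and A_55_P2032081 is probe 2; for Bhlhe41, A_51_P451176 is probe 1 and A_55_P2133001 is probe 2), and the other genes have 1. The levels came from whole pituitaries of 6 virgin females aged 8 weeks, 3 lacking Jmjd2a (Jmjd2a-/-, called KO) and 3 wild-type littermates (Jmjd2a+/+, called WT), each gland hybridised to its own one-colour Agilent array. All 6 animals were on a C57BL6 background, had been put on soiled bedding of a stud male to activate the oestrus cycle (the Whitten effect) and were killed 24 h later. Jmjd2a, now named Kdm4a, encodes a demethylase of histone H3 lysines. Neither the extent of the deletion nor the hour of day of dissection is given in the sources used here. In whole glands, fewer cells of a type and less RNA per cell cannot be told apart.

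The circadian clock is a transcription loop in which CLOCK and BMAL1 (encoded by Arntl) bind E-box sequences and activate, among others, the Per and Cry genes, whose proteins then repress them. Clock output factors pass this rhythm on. DBP, TEF and HLF, the PAR bZip proteins, activate genes through D-box sequences, and NFIL3 represses the same sequences. BHLHE40 and BHLHE41 (also called DEC1 and DEC2) repress E-box genes, and CIART represses CLOCK and BMAL1. TEF was named for its role in thyrotropes, the pituitary cells that make thyroid-stimulating hormone.

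All levels below are log2 of the spot signal relative to the 75th percentile of its array, and all log2 fold changes are KO over WT. The 75th percentile lay between 170 and 311 intensity units, and 34636 to 40569 probes of an array were well above background. The scanner software makes this yes or no call for each spot, on its signal against its background. The number of arrays limits the precision of every value. All 7 pituitary hormone genes examined (Prl, Gh, Pomc, Cga, Lhb, Fshb and Tshb) were well above background on all 6 arrays. The brighter probe of Kdm4a read 1.46, 1.21 and 1.37 on the KO arrays, against 2.14, 1.91 and 1.85 on the WT arrays, so a KO signal remained. Its other probe was well above background on 1 KO array and 1 WT array. Since the extent of the deletion is not known, neither probe checks the labels. Of the 36738 probes tested with limma, 0 (0%) were called at an adjusted p under 0.05 and 12.4% had an unadjusted p under 0.05 (3.66% higher and 8.78% lower in KO). The median log2 fold change of all tested probes was -0.080, and 0.097 with each array centred on its median, so a fold change near 0 has no settled side. The lower probes made up 70.5% of those at an unadjusted p under 0.05, and 25.3% with median centring, 42.1% with quantile normalization and 46.9% in the authors' value table.

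RefSeq promoter sequences (GRCm38.p6) were found for 6 of the 7 genes, with 2 for Tef. The 250 bases before each start were searched on both strands for the E-box CACGTG, its variant CACGTT, the D-box TTATGTAA or TTACGTAA, and the cyclic AMP response element TGACGTCA. The sequences are shown for Hlf and Bhlhe41, the genes with a probe at an unadjusted p under 0.05, and for Ciart, which has the most E-boxes of the 6, each from 5′ to 3′ with the motifs in capitals.
Hlf (chr11:90390918-90391167, minus strand): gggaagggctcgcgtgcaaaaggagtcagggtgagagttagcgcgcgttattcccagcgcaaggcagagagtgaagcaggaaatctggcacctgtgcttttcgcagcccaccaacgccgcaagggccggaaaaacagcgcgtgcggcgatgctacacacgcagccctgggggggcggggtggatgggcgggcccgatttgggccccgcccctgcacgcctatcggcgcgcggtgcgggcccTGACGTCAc
Bhlhe41 (chr6:145865421-145865670, minus strand): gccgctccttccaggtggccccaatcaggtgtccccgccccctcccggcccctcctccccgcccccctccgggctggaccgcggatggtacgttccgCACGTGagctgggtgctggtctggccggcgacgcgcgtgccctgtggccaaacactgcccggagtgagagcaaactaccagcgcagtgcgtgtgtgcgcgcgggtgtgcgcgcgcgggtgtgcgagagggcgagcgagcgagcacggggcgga
Ciart (chr3:95882229-95882478, minus strand): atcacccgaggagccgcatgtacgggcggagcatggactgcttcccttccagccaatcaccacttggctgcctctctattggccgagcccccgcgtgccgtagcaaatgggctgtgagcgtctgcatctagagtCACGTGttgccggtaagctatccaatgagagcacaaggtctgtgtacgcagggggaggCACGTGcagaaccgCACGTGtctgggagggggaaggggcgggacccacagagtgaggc
Ciart has 3 E-boxes, at 116, 58 and 44 bases before its start, and Bhlhe41 has 1 at 153 bases. Each of the 2 Tef promoters has 1, at 127 and 138 bases. An E-box is present in 6.02% of the 32851 promoters of this length. The element TGACGTCA in Hlf starts 9 bases before the start of the gene and is found in 1.55% of promoters. Neither CACGTT (3.85% of promoters) nor the D-box (0.931%) is in these windows, and those of Dbp and Nfil3 hold none of the 4 motifs. These are descriptions of the sequence, and nothing was measured at the promoters themselves.

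Of the 9 probes, 8 passed the filter of being well above background on at least 3 arrays, and each of these 8 was so on all 6. They cover 6 of the 7 genes. By limma with Benjamini-Hochberg adjustment over all probes, 0 of the 8 were called at an adjusted p under 0.05, against 0% of all probes. At an unadjusted p under 0.05 there were 2, Hlf on the higher side (3.66% of all probes) and probe 1 of Bhlhe41 on the lower side (8.78% of all probes), and such small counts do not set these genes apart. Fold changes were above 0 for 4 of the 8 probes, against 38.6% of all probes, with a median of 0.14. The KO and WT arrays did not overlap for 1 of the 8 probes, Bhlhe41 probe 1, against 20.3% of all probes in either direction and 13.4% on the lower side.

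**Figure D1:**
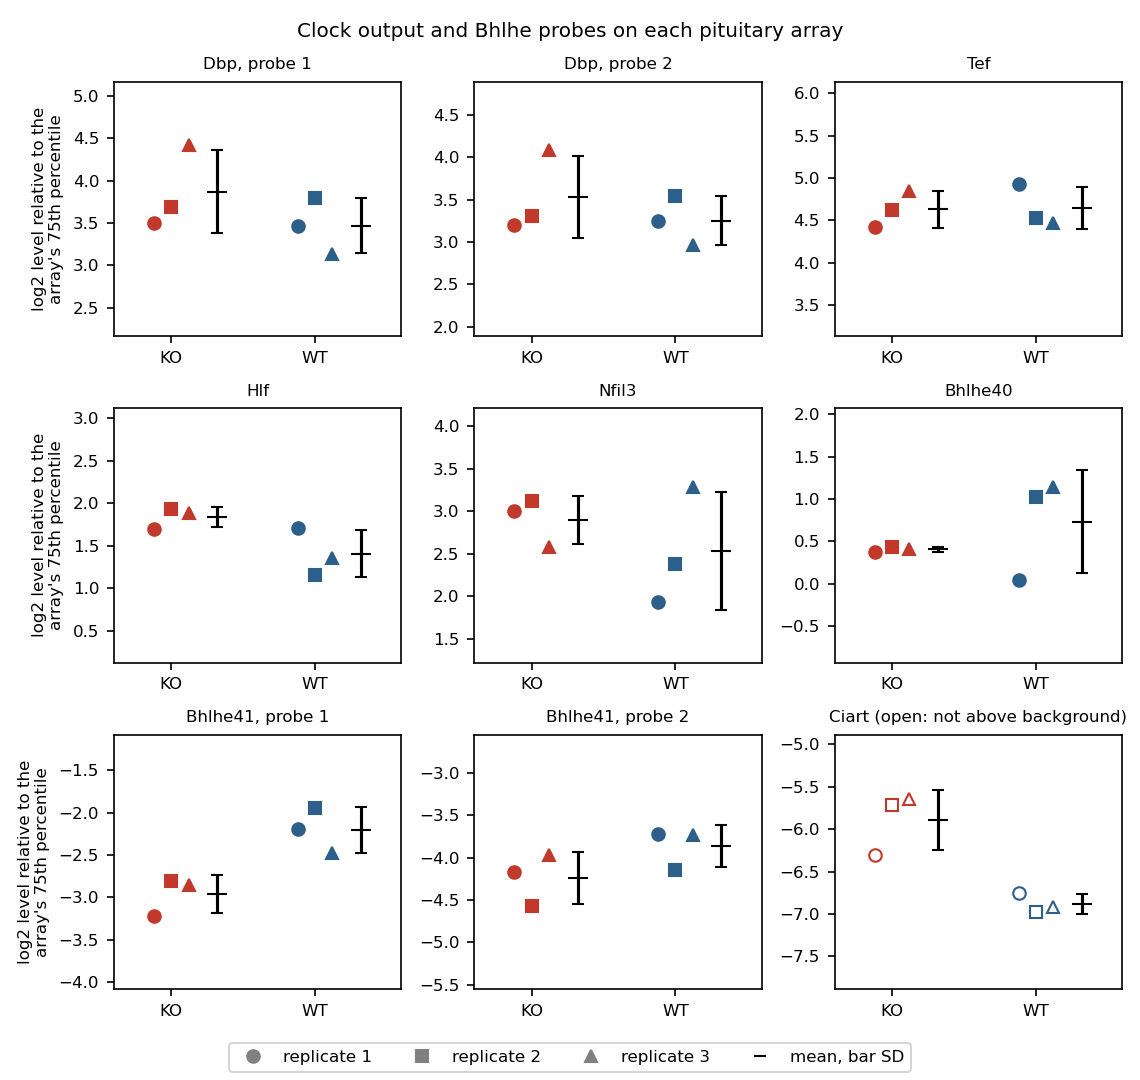
Level of each clock output and Bhlhe probe on every array, as log2 relative to the array's 75th percentile, with KO (red) left of WT (blue), symbols for the replicates, and black marks for the mean with a bar of 1 SD (n = 3 arrays per group). Each panel spans 3 log2 units around its own mean. Open symbols mark Ciart, which did not exceed background. Only Bhlhe41 probe 1, among probes above background, has KO and WT arrays that do not overlap.

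Among the PAR bZip activators, Dbp stood out by a single KO array. Probe 1 of Dbp read 3.50, 3.69 and 4.42 on KO arrays 1, 2 and 3, against 3.47, 3.79 and 3.14 on WT arrays 1, 2 and 3. KO array 3 was the highest, and the other KO arrays lay within the WT range. The means were 3.87 ± 0.48 in KO and 3.47 ± 0.33 in WT (SD, n = 3 each), a log2 fold change of 0.40 ± 0.28 (SE; 95% interval -0.26 to 1.07; limma adjusted p = 0.549). Without KO array 3 it was 0.13. Probe 2 followed the same course, with 3.20, 3.31 and 4.09 in KO and 3.25, 3.54 and 2.96 in WT (0.29 ± 0.27, limma adjusted p = 0.653), and 0.01 without KO array 3. Centred on their own means, the probes differed by at most 0.11 on any array. The SD of probe 1 among KO arrays was larger than that of 93.3% of all tested probes.

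The arrays lay in 2 rows of a slide. KO array 2 and WT array 2 lay in the second row of the slide and the other 4 arrays in the first. Dbp probe 1 had a log2 fold change of 0.66 within the first row (limma adjusted p = 0.447) and of -0.10 between the single KO and WT array of the second row, a comparison that allows no test. Probe 2 gave 0.54 and -0.23 in the same order of rows. KO array 3, the high one, lay in the first row, so a difference between rows and that single array cannot be told apart. Since each row holds as many KO as WT arrays, row as a factor cannot move the fold change; the limma adjusted p of probe 1 was then 0.609.

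Tef, by contrast with Dbp, had the same mean in both groups. It read 4.42, 4.62 and 4.85 in KO and 4.93, 4.53 and 4.47 in WT. Each group covered nearly the whole range of the other, and the means were 4.63 ± 0.21 in KO and 4.64 ± 0.25 in WT (SD, n = 3 each). The 95% interval of the log2 fold change, -0.45 to 0.42, leaves room for a KO level between 73.3% and 134% of the WT level. The sign was negative here and positive with median centring, quantile normalization and normexp, as it was in the values the authors deposited.

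Hlf, the remaining PAR bZip gene, read higher in KO on average, with the groups touching at their edges. Its levels were 1.70, 1.93 and 1.88 in KO, against 1.71, 1.16 and 1.35 in WT. The KO arrays lay close together, and WT array 1 fell 0.01 above the lowest of them. The KO mean was 1.84 ± 0.12 and the WT mean 1.41 ± 0.28 (SD, n = 3 each), a 1.35-fold higher level (95% interval 1.01 to 1.79; log2 fold change 0.43 ± 0.17, unadjusted p = 0.0421 and adjusted p = 0.394 by limma). The unadjusted limma p was above 0.05 in 5 of the 6 fits with an array left out. It was 0.0615 with no filter on dim probes, 0.0597 with the slide row as a factor and 0.0848 with the replicate number as a block. In the other limma fits of all 6 arrays it was under 0.05, from 0.00635 with normexp to 0.0399 with quantile normalization. An exact permutation test of the reported levels (two-sided) gave p = 0.2. The overlap of the groups hung on the scaling: KO and WT arrays did not overlap with median centring, quantile normalization, normexp, the authors' value table, or a 75th percentile taken over averaged probes (KO 1.83 to 2.07, WT 1.28 to 1.81). The fold change was positive in all 20 alternatives tried. It ran from 0.26 within the first slide row (limma adjusted p = 0.590) to 0.78 between the single KO and WT array of the second. Some alternatives could not move it and gave 0.43 again. These were the other filters, the brightest probe per gene, the variance trend with robust fitting, and the replicate number or slide row as a block.

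Nfil3, which encodes the repressor of D-box genes, spread more widely among WT animals than between groups. It read 3.0, 3.12 and 2.58 in KO, against 1.93, 2.38 and 3.29 in WT. WT array 1 was the lowest and WT array 3 the highest of all 6. The means were 2.90 ± 0.28 in KO and 2.53 ± 0.69 in WT (SD, n = 3 each), with a log2 fold change of 0.36 ± 0.35 (95% interval -0.46 to 1.19; limma adjusted p = 0.654). Its SD among WT arrays was larger than that of 93.2% of all tested probes. The fold change was 0.06 without WT array 1, and 0.74 without WT array 3 (limma adjusted p = 0.308). It was 0.18 within the first slide row (limma adjusted p = 0.886) and 0.74 between the single arrays of the second. Neutrophil transcripts were also highest on WT array 3. The log2 of the summed unlogged levels of the 5 of 6 neutrophil markers tested was 0.34, 0.28 and 0.80 on KO arrays 1, 2 and 3. It was 1.26, 0.96 and 3.84 on WT arrays 1, 2 and 3. In such a sum the brightest marker weighs most, here S100a9 (0.60, 0.25 and 3.24 on these WT arrays). The mean of the log2 levels of the 5 markers was -2.41, -2.17 and 0.39 there. The order of WT arrays 1 and 2 thus hung on the measure, and the mean had the order of Nfil3. Mmp8, the sixth, did not pass the filter. For the 5 Schwann cell markers the log2 of the summed levels was 3.65 to 3.76 on KO arrays. On WT arrays 1, 2 and 3 it was 3.52, 3.78 and 4.31, again highest on WT array 3. The mean of 8 immediate early genes was 1.42 to 1.79 on KO arrays. On WT arrays 1, 2 and 3 it was 1.59, 2.95 and 3.18, the order Nfil3 had in WT. Junb, Atf3, Nr4a1 and Fosb had this order singly, and Fos had the reverse (4.6, 4.25 and 2.67). Jun, Egr1 and Ier2 had neither. The part of these cells and genes in the Nfil3 level was not tested.

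Of the Bhlhe repressors, Bhlhe41 read lower in KO by both of its probes in the reported scaling. The groups were separate with the brighter probe alone. Probe 1 read -3.22, -2.81 and -2.85 in KO, against -2.19, -1.94 and -2.48 in WT. Every KO array lay below every WT array. The KO mean of -2.96 ± 0.23 and the WT mean of -2.20 ± 0.27 (SD, n = 3 each) put the KO level at 59.1% of the WT level (95% interval 43.2% to 81.0%), a log2 fold change of -0.76 ± 0.19. Limma gave an unadjusted p of 0.00564 and an adjusted p of 0.296, and an exact permutation test of this single value (two-sided) gave p = 0.1, a design of 3 against 3 allowing none smaller.

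Probe 2 of Bhlhe41 read -4.17, -4.57 and -3.97 in KO, against -3.72, -4.15 and -3.73 in WT. Here WT array 2 lay below KO array 3, so the groups overlapped. The log2 fold change was -0.37 ± 0.20 (95% interval -0.86 to 0.11; limma adjusted p = 0.475), and 0.0043 with quantile normalization. Centred on their own means, the probes differed by up to 0.74 on an array, against 0.11 for the Dbp pair.

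Bhlhe41 was a dim gene on this array, and the size of its fold change moved with the processing. Probe 1 gave 26.5, 33.3 and 42.0 intensity units in KO and 37.4, 81.4 and 34.5 in WT, before scaling. Probe 2 was dimmer, at 13.7, 9.8 and 19.3 in KO and 13, 17.6 and 14.5 in WT. It is absent from the authors' value table. The log2 fold change of probe 1 was -0.36 after normexp and -0.20 from the authors' value table, with the groups apart in each. In the authors' table the gap was narrow (highest KO 6.55, lowest WT 6.57), and the unadjusted p was 0.0855 by limma. Quantile normalization gave -0.65 and median centring -0.58 for probe 1. Leaving out each array in turn gave -0.90 to -0.62. Within the first slide row the value was -0.70 (limma adjusted p = 0.358) and between the single arrays of the second row -0.87.

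Bhlhe40, the other repressor of this pair, was nearly constant among KO animals in the reported scaling, and not among WT animals. It read 0.38, 0.44 and 0.41 in KO, against 0.04, 1.02 and 1.14 in WT. All 3 KO arrays lay between WT array 1 and the other WT arrays. The KO arrays ranged more widely with median centring (3.53 to 3.71, WT 3.09 to 4.34) and normexp (0.33 to 0.47, WT 0.06 to 1.01). With quantile normalization they stayed close (8.27 to 8.31, WT 7.92 to 9.02). Over all tested probes the median SD was 0.15 in KO and 0.23 in WT. The SD of Bhlhe40 in the reported scaling was 0.03 in KO, larger than that of 2.9% of all tested probes. In WT it was 0.60, larger than that of 90.4%. The difference of the means (0.41 in KO and 0.74 in WT; log2 fold change -0.33 ± 0.29, 95% interval -1.01 to 0.36) was within this spread (limma adjusted p = 0.628). Without WT array 1 it was -0.68 (unadjusted p = 0.00202 and adjusted p = 0.321 by limma), and without WT array 3 it was -0.13. The first slide row alone gave -0.20 (limma adjusted p = 0.835) and the single arrays of the second row -0.59. Immediate early genes, whose transcription answers a stimulus without new protein synthesis, also varied among WT arrays. The mean level of the 8 tested (Fos, Fosb, Jun, Junb, Egr1, Ier2, Nr4a1 and Atf3) was 1.42, 1.79 and 1.47 in KO and 1.59, 2.95 and 3.18 in WT. Within WT, Junb, Egr1, Atf3, Nr4a1 and Fosb were lowest on array 1, as Bhlhe40 was, while Fos and Ier2 were highest there. Of the 8 genes, 5 had an unadjusted p under 0.05, all on the lower side (8.78% of all probes), among them Ier2 (log2 fold change -1.81 ± 0.16, limma adjusted p = 0.119), Fos (-3.77 ± 0.49) and Junb (-2.0 ± 0.45). Their part in the Bhlhe40 level was not tested. The list was chosen with earlier results of these data known, so its count is a description only.

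Ciart, which encodes a repressor of CLOCK and BMAL1, was not well above background, by the scanner software's call, on any of the 6 arrays. Its probe gave 3.12, 4.41 and 6.05 intensity units in KO and 1.58, 2.46 and 1.59 in WT, before scaling. No fold is given, since the probe did not pass the filter for testing.

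**Figure D2:**
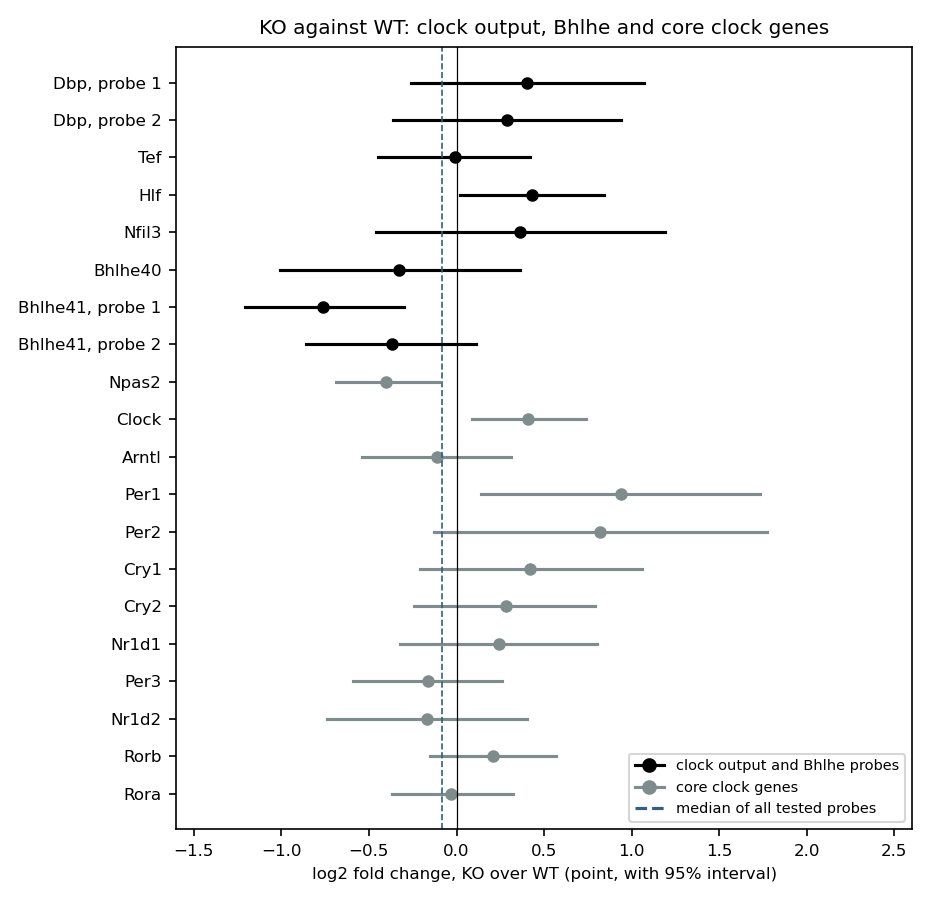
Log2 fold change (KO over WT, horizontal axis) with its 95% interval from limma for the 8 tested clock output and Bhlhe probes (black) and 12 core clock genes (grey), with 3 arrays per group and a dashed line at the median of all tested probes, -0.080. Among the black intervals those of Hlf and Bhlhe41 probe 1 leave out 0, and none of the plotted genes passed an adjusted p under 0.05.

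The members differed in which arrays were high. Likeness was measured as the root mean square difference over the 6 arrays between levels centred on each probe's mean, with each gene's brighter probe. The PAR bZip genes were the closest trio, at 0.25 between Tef and Hlf, 0.35 between Tef and Dbp and 0.38 between Hlf and Dbp. Bhlhe41 and Nfil3 were the farthest pair (0.80), followed by Dbp and Nfil3 (0.70). Bhlhe40 and Bhlhe41 differed by 0.47 and Bhlhe40 and Nfil3 by 0.45. A small difference can come from flat genes as well as from shared ups and downs, so the order is a description of these 6 arrays.

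Outside the list, the genes most like Dbp among 16457 were Zbtb34 (0.103), Ccdc13 (0.115) and Wfdc17 (0.123), against a median of 0.43 over all genes. Like Dbp, all 3 were highest on KO array 3 and lowest on WT array 3. For Bhlhe40 the most alike were Fbn1 (0.099) and Col6a3 (0.101), which encode the matrix proteins fibrillin and a collagen, and Pcsk5 (0.109), a proprotein convertase gene. These 3 were lowest on WT array 1 and high on the other WT arrays. Likeness over 6 arrays says nothing of a shared function.

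**Figure D3:**
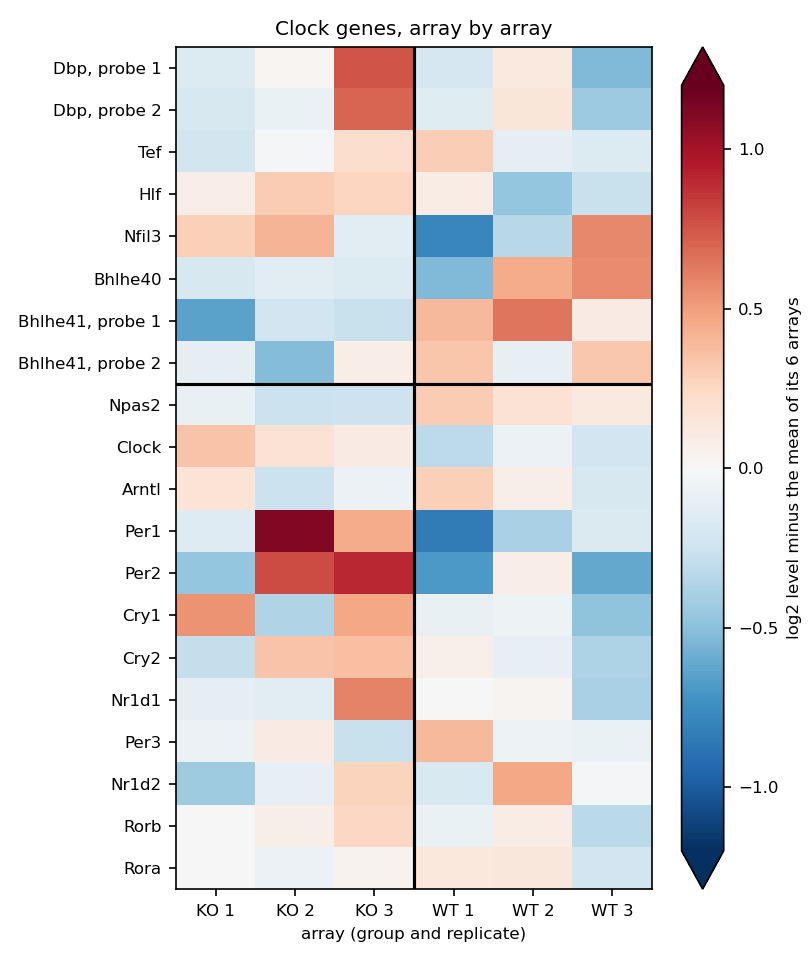
Log2 level of each tested clock output and Bhlhe probe (above the line) and core clock gene (below the line) on every array, minus the mean of its 6 arrays, from blue (low) to red (high), with the 3 KO arrays left of the 3 WT arrays. KO array 3 is red for both Dbp probes, Per2 and Nr1d1, and WT array 1 is blue for Nfil3, Bhlhe40, Per1 and Per2.

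In the core clock, 0 of the 12 genes reported passed an adjusted p under 0.05, while 3 had an unadjusted p under 0.05 (12.4% of all probes did). Clock, which encodes the partner of BMAL1, read 0.86, 0.69 and 0.62 in KO, against 0.20, 0.45 and 0.29 in WT (log2 fold change 0.41 ± 0.14, limma adjusted p = 0.347). Npas2, a relative that can stand in for Clock, read -4.33, -4.50 and -4.49 in KO, against -3.94, -4.07 and -4.12 in WT (-0.40 ± 0.12, adjusted p = 0.340 by limma; -0.02 with quantile normalization). Its probe was dim and is absent from the authors' value table. Neither gene's groups overlapped, and their fold changes had opposite signs. Such separation was found in 20.3% of all probes (6.91% with KO higher and 13.4% with KO lower). Arntl had a log2 fold change of -0.11 ± 0.18 (limma adjusted p = 0.786; 0.06 with median centring).

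Among the core repressors, Per1 and Per2 had the highest fold changes in the reported scaling, and the order of the genes depended on the processing (with quantile normalization, 0.99 for Per1 and 1.12 for Per2). Per1 read 3.57, 4.83 and 4.17 in KO, against 2.88, 3.33 and 3.55 in WT. The lowest KO array lay just above the highest WT array, and KO lay wholly above WT in 6.91% of all probes. The log2 fold change of Per1 was 0.94 ± 0.34 (limma adjusted p = 0.365), and 0.62 without KO array 2. Per2 read -4.54, -3.29 and -3.17 in KO, against -4.76, -4.00 and -4.69 in WT (0.82 ± 0.40, limma adjusted p = 0.440; 0.06 with normexp, and 0.57 to 1.26 with an array left out). The groups of Per2 overlapped, with KO array 1 at WT levels. Nr1d1, the gene of the receptor REV-ERB alpha, was highest on KO array 3, as Dbp was: it read -0.67, -0.70 and 0.03 in KO and -0.57, -0.53 and -0.96 in WT (0.24 ± 0.24), and its fold change was 0 without that array.

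The other core genes had small fold changes or wide errors. Cry1 gave 0.42 ± 0.27 (-0.04 with normexp), Cry2 0.28 ± 0.22, Per3 -0.16 ± 0.18 (0.27 with quantile normalization) and Nr1d2 -0.17 ± 0.24 (0.02 within the first slide row), with limma adjusted p from 0.522 to 0.758. With an array left out, Cry1 ranged from 0.26 (without KO array 1) to 0.71 (without KO array 2) and Cry2 from 0.16 (without WT array 3) to 0.49 (without KO array 1). For Rorb and Rora, genes of receptors that activate Arntl, the brighter probes gave 0.21 ± 0.15 (Rorb) and -0.03 ± 0.15 (Rora; 0.15 with median centring). Of the 7 core repressors, 5 were above 0 with a median of 0.28, against 4 with a median of 0.06 after normexp, 6 with a median of 0.30 after quantile normalization and 7 with a median of 0.45 after median centring. Of the 6 clock kinases and ubiquitin ligase subunits, 6 were above 0 (5 in the authors' value table, and 5 after normexp) with a median of 0.10, and 0 had an unadjusted p under 0.05. The smallest p values there were those of Csnk1d (0.19 ± 0.11), Fbxl21 (0.23 ± 0.16) and Csnk1e (0.13 ± 0.13).

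The C/EBP genes encode bZip proteins related to the PAR bZip and NFIL3 factors. All 5 tested were above 0, under each of the 5 other scalings too, with a median of 0.31 beside -0.080 for all probes, and 2 had an unadjusted p under 0.05 on the higher side (3.66% of all probes). Cebpd read 4.61, 4.82 and 4.91 in KO, against 3.63, 4.48 and 3.79 in WT (log2 fold change 0.81 ± 0.24, limma adjusted p = 0.327). Cebpa gave 0.74 ± 0.23 (0.05 with normexp) and Cebpg 0.31 ± 0.14, with limma adjusted p of 0.342 and 0.415. The KO arrays lay above the WT arrays in 4 of the 5 genes, where 6.91% of all probes did so. None passed an adjusted p under 0.05. This list, like the other lists here, was chosen with earlier results of these data known, so its counts cannot stand as a test.

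Among bHLH relatives of the Bhlhe repressors, 3 of 8 were above 0 with a median of -0.02, and 6 of 8 with a median of 0.16 with median centring. Hes1, a repressor downstream of Notch, read -3.37, -3.23 and -3.22 in KO, against -2.15, -2.81 and -2.85 in WT (log2 fold change -0.67 ± 0.21, limma adjusted p = 0.340; -0.15 in the authors' value table). Id3 and Id1, whose proteins lack a DNA-binding region and block other bHLH proteins, gave 0.51 ± 0.22 and 0.45 ± 0.26. Of these 8 genes, Hes1 was the one with an unadjusted p under 0.05, on the lower side. As 8.78% of all probes were so, this count does not set the list apart.

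Genes known to be controlled through D-boxes in liver or in the pars tuberalis were 4 of 5 above 0, with a median of 0.16; Cyp7a1 of the list did not pass the filter. Eya3, a coactivator that acts with TEF on Tshb in the pars tuberalis, read 2.87, 2.94 and 2.94 in KO, against 2.38, 2.72 and 2.53 in WT (log2 fold change 0.37 ± 0.13, limma adjusted p = 0.365). Pdxk, an enzyme of vitamin B6 metabolism, gave 0.22 ± 0.12, and Por, the electron donor of cytochromes P450, 0.16 ± 0.16. Tshb, the gene of a thyroid-stimulating hormone subunit, gave 0.14 ± 0.14. The thyrotrope markers Tshb, Trhr, Dio2 and Gata2 had 2 members above 0 and 2 below, and Dio2, whose enzyme makes active thyroid hormone, gave -0.54 ± 0.14 (limma adjusted p = 0.3).

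Glucocorticoids induce Per1, and hypoxia induces Bhlhe40 and Bhlhe41, in many tissues. Of 7 glucocorticoid-responsive genes, Per1 among them, 6 were above 0, with a median of 0.38, 4 at an unadjusted p under 0.05 on the higher side (3.66% of all probes) and 1, Dusp1, on the lower side (-2.31 ± 0.29, limma adjusted p = 0.164). Klf9 gave 0.57 ± 0.13 and Fkbp5 0.38 ± 0.14. Of 9 hypoxia-responsive genes 8 were below 0 (7 with quantile normalization), with a median of -0.31 (-0.14 with median centring) and 4 at an unadjusted p under 0.05 on the lower side, beside 8.78% of all probes. Slc2a1, a glucose transporter gene, gave -0.31 ± 0.12, Ndrg1 -0.40 ± 0.15 and Adm -0.40 ± 0.16. In neither list did a gene pass an adjusted p under 0.05, and any relation of these genes to Bhlhe41 was not tested. Both lists were chosen with earlier results of these data known, so these counts are a description only.

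**Figure D4:**
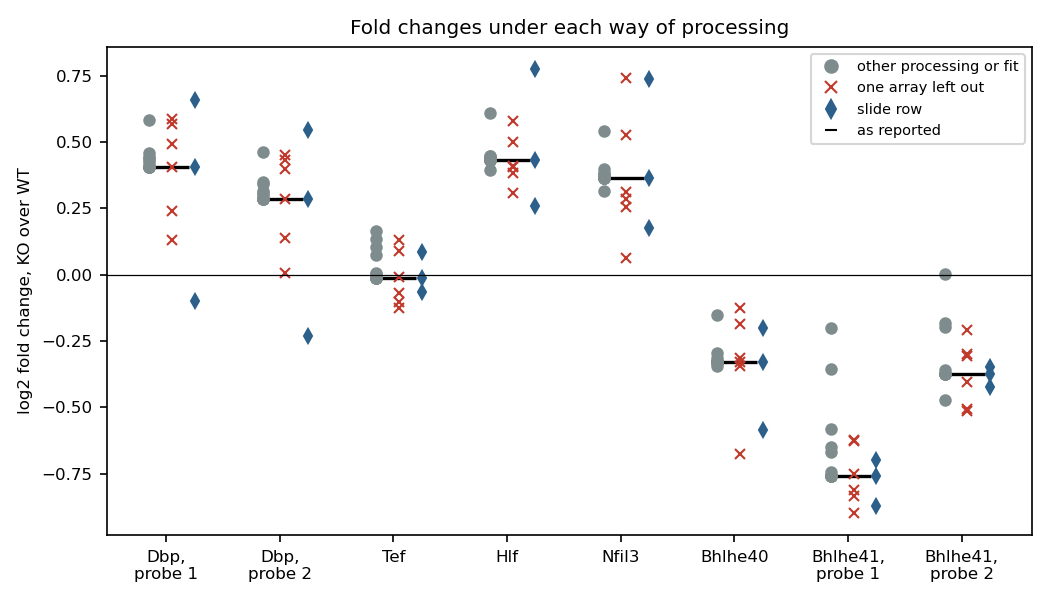
Log2 fold change (KO over WT) of each tested clock output and Bhlhe probe under every way of processing: the reported value (black line), other processing or fits (grey circles), each array left out (red crosses) and slide row as a factor or each row alone (blue diamonds). Hlf, Nfil3, Bhlhe40 and Bhlhe41 probe 1 stay on their side of 0 in all of them, Dbp falls below 0 in the second slide row alone, and Tef lies on both sides. Other filters, the brightest probe per gene, the variance trend and the blocks cannot move a fold change.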

How the data were processed

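Total RNA of 6 pituitaries was labelled with Cy3 and read on one-colour arrays that lay on a single slide and were scanned together, per the file headers. Agilent Feature Extraction 11.0.1.1 wrote the deposited intensity values (gProcessedSignal, background-subtracted and not normalized between arrays) and the 0 or 1 spot flags, a further kind of value (other) in the deposited files. The table of log2 values that the authors deposited covers 26625 probes. Set against the median spot brightness of its own array on the log2 scale, each column correlated at 0.997 or more; the columns have medians of 8.25 to 8.26, so its scale and direction are known and its normalization is not. Limma is named in the submitters' processing notes.

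Control spots and outlier spots were left out, log2 intensities of a probe's spots were averaged, and each array's 75th percentile over spots was subtracted. Limma 3.58.1 under R 4.3.3 tested 36738 of 55681 probes (lmFit, then eBayes, two-sided). These had a usable spot on all 6 arrays and were well above background on at least 3. P-values were adjusted by Benjamini-Hochberg over these probes, and an adjusted p under 0.05 was a call. The steps were tested on simulated data. Symbols came from RefSeq accessions (27656 probes, 20972 symbols, GRCm38.p6). Other lists used each gene's brightest tested probe. A gene of the core clock lists is not reported here. The members, the lists and the rule for named genes (Kdm4a, all members, the core clock, up to 3 genes of the smallest p in each further list described, and the 3 genes most like Dbp and Bhlhe40) were chosen with earlier results of these data known. The alternatives were normexp background correction (offset 50), quantile normalization, median centring, the authors' table, other filters, the brightest probe per gene, robust fitting with a variance trend, weights per array, the replicate number or the slide row as a block, each slide row alone, and each array left out.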

Additional observations from a re-analysis of the deposited data

How the results depend on the processing

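The count of called clock output and Bhlhe probes was 0 under every alternative that gives a test. Over all probes, limma called 0 as reported, 28 with normexp, 29 in the authors' value table, 30 with a variance trend and robust fitting, 11 with the filter asking for all 6 arrays, and 3 with median centring, and 0 with each array left out. The cause was not tested. Tef, at -0.0143 as reported, turned to 0.0754 with normexp, 0.103 with quantile normalization, 0.163 with median centring, 0.136 from the deposited log2 values, 0.0062 with array weights, 8e-04 with a 75th percentile over averaged probes, and to between -0.125 and 0.129 with an array left out (0.0902 without KO array 1 and 0.129 without WT array 1). Bhlhe41 probe 2 turned to 0.0043 with quantile normalization. The percentile over averaged probes was computed first, and the percentile over spots was taken as the reported scaling after the values had been seen, so the first version was kept as an alternative chosen after seeing the data; it changes Hlf from touching groups to separate ones. At an unadjusted p under 0.05, limma gave 4570 probes as reported, 2851 without KO array 2, 2622 without KO array 3 and 6987 without WT array 2.

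The labels do not say that a replicate number marks a litter or a day. Deviations from the group means correlated at 0.14, -0.17 and -0.10 between KO and WT arrays of the same number, so the numbers were not taken to pair the samples. With the replicate block, 0 probes were called overall and 0 among the clock output and Bhlhe probes, and the adjusted p of Bhlhe41 probe 1 was 0.454. With 3 arrays a group, the interval of Nfil3 spans fold changes from 0.725 to 2.28, and Bhlhe41 has a low signal over background.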
